A study of Homo sapiens with 6 samples.

Results

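The large ribosomal subunit protein genes are the RPL and RPLP genes, which encode the proteins of the larger of the 2 ribosomal particles. All transcripts of 45 such genes were taken from the 5 deposited single-cell matrices by their Ensembl identifiers without version, with symbols from human GENCODE release 44. These genes made up 45 of the 12472 human genes matched in the matrices and 367 of the 42740 matched human transcripts. Of those transcripts, 297 were counted in human cells. The rule takes genes by name and uses no measured value, though the list was drawn up with earlier results of these data known.

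Mixed human and mouse cells, labelled as the myeloma lines JJN3 and 5TGMG1 (5TGM1 in the study's methods), were encapsulated in droplets on the 10X Chromium or a Drop-seq instrument and their cDNA was read on nanopores. The 10X libraries were labelled 30 and 35 PCR cycles with 2000 cells each, the Drop-seq libraries 30 and 35 cycles with 500 cells each, and a further Drop-seq library 1000 cells, whose protocol text gives 25 PCR reactions, taken here as 25 cycles. The study's methods do not name libraries by these totals. For each platform they describe 1 amplified pool that was split before further PCR cycles. The 30- and 35-cycle libraries are taken here as the products of that split, so they are not separate cultures. For 10X, the study's main text gives lower combined cycle numbers than the labels, and the labels are used here. The 25-cycle Drop-seq library shared 135 human cell barcodes with the 30-cycle library and 133 with the 35-cycle library. It cannot be taken as a separate source of cells. The labels give no treatment or edited allele, and both lines are established cell lines grown in culture. The sixth sample gave read numbers only and was not used here. Each group was 1 library, so no difference below has a replicate check or a test. Intervals (95% throughout) take account of counting error alone or, for values over cells, of the number of cells in the library.

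The large subunit joins amino acids into the growing protein at a catalytic centre built of ribosomal RNA, and the new chain leaves through a tunnel in it. Its proteins fold and brace that RNA, form the stalk that recruits the elongation factors, line the tunnel and ring its exit. Ribosomal protein mRNAs are among the most abundant in growing cells, and most begin with a C and a run of pyrimidines, the terminal oligopyrimidine (TOP) tract, through which growth signals control their translation. The genes also have many processed pseudogenes, copies of their mRNA in the genome.

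The sequence at the start was not used to choose the members, and it is shown here for genes that led one platform or the other. Each window holds 15 bases before and 15 bases from the RefSeq transcription start on GRCh38.p14, read 5′ to 3′ on the gene's strand, so that its last 15 bases are the first of exon 1 in the 5′ UTR. Capitals mark a C at the start followed by an unbroken run of C or T of at least 4 bases. The first 4 genes were among the most abundant in 10X and the next 5 in Drop-seq, where RPL10 was also among the top 3 at 25 cycles. RPL10, RPL11, RPL13 and RPL34 have further listed starts, none of which carries the tract, and RPL8, also abundant in 10X at 30 cycles, is not shown.
RPL29, chr3:51995881-51995910, minus strand: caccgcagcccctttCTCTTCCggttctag
RPL10, chrX:154398362-154398391, plus strand: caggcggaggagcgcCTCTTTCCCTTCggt
RPLP0, chr12:120201097-120201126, minus strand: gcgcgggcgcgaggcCCTTCTCTCgccagg
RPL11, chr1:23691791-23691820, plus strand: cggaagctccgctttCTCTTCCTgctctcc
RPL13, chr16:89560667-89560696, plus strand: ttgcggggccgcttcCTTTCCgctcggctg
RPL13A, chr19:49487593-49487622, plus strand: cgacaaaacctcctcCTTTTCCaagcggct
RPL41, chr12:56116618-56116647, plus strand: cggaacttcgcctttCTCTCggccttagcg
RPL21, chr13:27251543-27251572, plus strand: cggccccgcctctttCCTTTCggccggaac
RPL34, chr4:108620561-108620590, plus strand: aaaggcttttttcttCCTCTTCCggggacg
RPL6, which also led in 10X, is listed with 2 starts and neither carries the tract as defined here: at chr12:112409271-112409300 on the minus strand the window reads ggggagacggcgcgtgcactgtgttcctgg.

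Searched on the sense strand at the listed start only, the tract was present at 28 of the 50 member starts in the table (56%), against 1429 of all 35116 starts (4.07%). At least 1 start with the tract was found for 28 of 38 members, and 7 members were not in the table. RPL10A and RPL4 were among those without it, and RPL39 and RPLP2 among those with it. The 2 RPL6 transcripts with the most counts in 10X begin at chr12:112409605 and chr12:112409596, outside both listed RPL6 windows. The sequence at those 5′ ends was not examined, so whether RPL6 mRNA carries the tract is not known here. A match is a description of letters in a window and not a measurement of transcription.

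The labelled number of barcodes was kept in each library, starting from the highest total, and those with at least 90% of counts on human transcripts were taken as human cells. Drop-seq gave 251 human cells at 25 cycles, 166 at 30 and 165 at 35, and 10X gave 1006 and 911 at 30 and 35. They held 115245, 67144, 93499, 161961 and 199308 human counts in the same order. The median human cell had 271, 243 and 352 counts in Drop-seq and 118 and 171 in 10X. The smallest value stored was 1 in Drop-seq at 25 cycles, 3 in Drop-seq at the higher cycle numbers and 2 in 10X, so entries below these are missing rather than 0.

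The labelled cell type was checked first, because every platform comparison depends on it. Myeloma cells are malignant plasma cells, yet in the Drop-seq human cells 10 of 11 plasma cell markers were at 0 in all 3 libraries and MZB1 alone was counted, 5 to 15 times. Of 10 T cell markers, 8, 4 and 5 were counted there, with 303, 214 and 278 counts in all, and CD3G, TRBC1 and CD1E led. In 10X the pattern was the opposite: 9 of 11 plasma cell markers held 6.67% and 10.4% of human counts, led by the immunoglobulin gene IGLL5, and T cell markers had 2 counts at 30 cycles and 0 at 35. By these markers the Drop-seq human cells therefore went against the JJN3 label. No human cell barcode was shared between the platforms, but these use different beads, so this has no bearing on the line. The study's main text and single-cell methods name JJN3 as the human line for both platforms. Its culture methods list Jurkat, a T cell line, and a figure legend names Jurkat for the 10X cells. Which line entered each platform is not settled by the study's text. The capture platform, the human cells captured, the UMI counting and the stored minimum cannot be told apart in anything below that sets Drop-seq against 10X.

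Large-subunit genes took a far larger part of the human counts in Drop-seq than in 10X. They held 14.2% (14.0 to 14.4) of human counts in Drop-seq at 25 cycles, 14.1% (13.9 to 14.4) at 30 and 13.9% (13.7 to 14.1) at 35. In 10X they held 4.60% (4.50 to 4.71) at 30 cycles and 5.19% (5.09 to 5.29) at 35. The 3 Drop-seq intervals overlapped one another, the 10X intervals did not, and every Drop-seq library lay above both 10X libraries. Small-subunit (RPS) genes differed in the same direction, with 11.3%, 11.5% and 10.9% in Drop-seq and 1.83% in each 10X library.

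Other RNAs held more of the 10X counts. Transcripts of the mitochondrial genome held 10.7% and 13.2% in 10X against 2.48% to 2.58% in Drop-seq, and IGLL5 with IGLC1 held 6.03% and 10.0% against 0. With all of these taken out of the total, an alternative added after seeing the data, the large-subunit share was 5.53% and 6.76% in 10X and 14.3% to 14.6% in Drop-seq. With this total the 10X shares rose more than the Drop-seq shares, and every Drop-seq library still lay above both 10X libraries. Whether these RNAs account for part of the gap was not tested.

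Reads were counted to more than 1 isoform of a gene, which sets how the counts should be read. In 87.3% to 90.7% of the pairs of a member gene and a cell, several transcripts of the gene were counted, and in 90.1% to 91.6% of those in 10X all of them had the same value. In Drop-seq this share was 65.3%, 56.0% and 50.7%. Over all pairs the median highest value was 2 in 10X, which is the stored minimum there. In Drop-seq it was 2, 5 and 5, above stored minima of 1, 3 and 3. Transcripts at the minimum are equal of necessity, so this share cannot be compared between platforms. The sum over a member's transcripts was 3.09 to 3.28 times its highest transcript in Drop-seq and 2.68 to 2.73 times in 10X, against 2.04 to 2.13 and 1.47 to 1.53 over all genes. Taking only the highest transcript per gene and barcode, for all human genes, the large-subunit share was 9.25%, 9.35% and 9.08% in Drop-seq against 2.53% and 2.90% in 10X. Intervals on summed counts are therefore narrower than the number of molecules would give. A UMI marks 1 molecule whatever its length, so levels are given as shares of counts and were not divided by length.

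**Figure D1:**
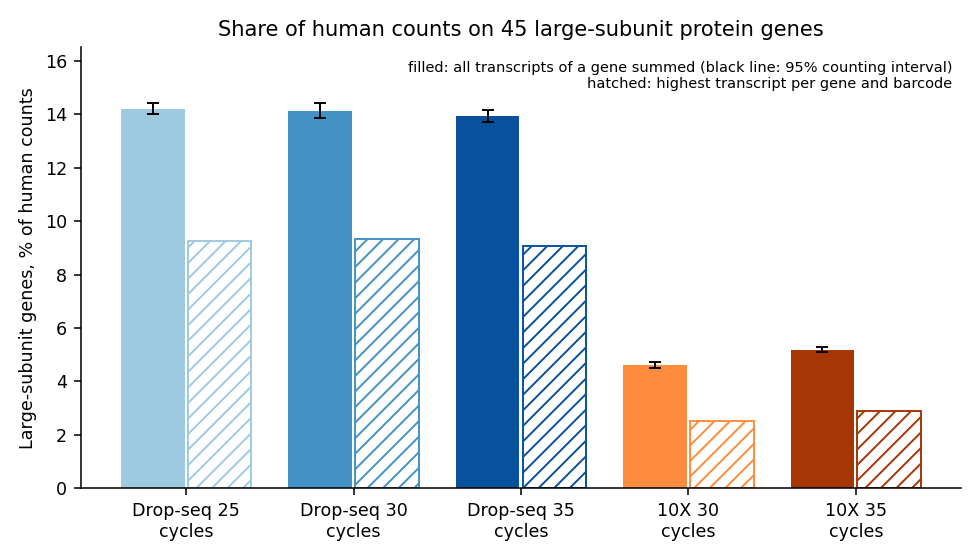
Share of human counts in human cells on the 45 large-subunit genes (vertical axis, %) in the 5 libraries. Filled bars sum all transcripts of a gene, with black lines for 95% counting intervals, and hatched bars use the highest transcript per gene and barcode; Drop-seq lies at 13.9% to 14.2% and 10X at 4.60% and 5.19% for the sums.

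The order of the genes differed between the platforms too. In 10X the list was led by RPL29, RPL6 and RPL10, which together held 55.0% of large-subunit counts at 30 cycles and 59.8% at 35. In Drop-seq the first 3 genes held 19.6% to 19.8%, and they were RPL13A, RPL13 and RPL10 at 25 cycles and RPL13, RPL13A and RPL41 at 30 and 35. Of the 100 most abundant human genes, 29, 31 and 32 were members in Drop-seq and 8 and 10 in 10X. The median member held 0.222%, 0.220% and 0.228% of human counts in Drop-seq and 0.0247% and 0.0236% in 10X.

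Across the 45 genes, Spearman's rho of the levels was 0.91 to 0.95 between Drop-seq libraries, 0.88 between the 10X libraries and 0.08 to 0.28 between platforms. These are descriptions over genes, which are not independent, and libraries of 1 platform shared 133 to 145 human cell barcodes in Drop-seq and 722 in 10X. By highest transcript the values between platforms were -0.02 to 0.19. Without RPL6, RPL10 and RPL29, an alternative chosen after seeing the data, the share was 2.13% and 2.15% in 10X and 13.0% to 13.3% in Drop-seq.

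**Figure D2:**
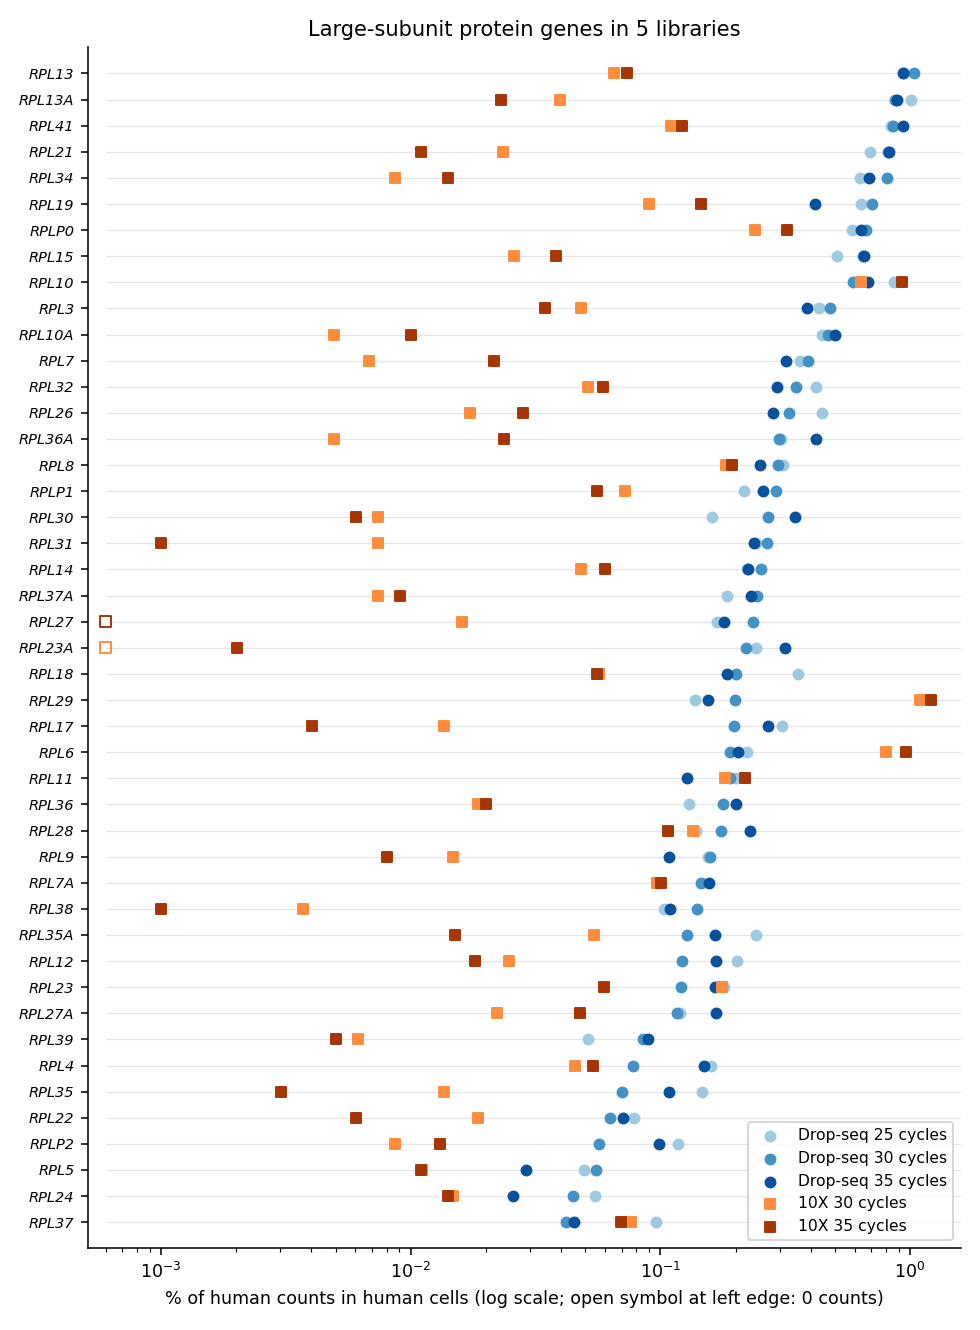
Share of human counts (horizontal axis, %, log scale) of each of the 45 large-subunit genes, ordered by Drop-seq at 30 cycles, with circles for Drop-seq and squares for 10X. Most squares lie well to the left of the circles, while RPL29 and RPL6 lie to the right and those of RPL10, RPL11 and RPL28 lie close to the circles.

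RPL29, a eukaryote-specific protein of the subunit surface, was the most abundant member in 10X by summed counts. It had 1775 counts (1.10% of human counts) at 30 cycles and 2422 (1.22%) at 35, against 158, 133 and 145 counts (0.137%, 0.198% and 0.155%) in Drop-seq. It was seen in 20.7% and 31.0% of 10X human cells and in 4.22% to 5.98% of Drop-seq human cells. Both 10X libraries thus lay above all Drop-seq libraries on this gene, in level and in cells.

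RPL6, another eukaryotic protein of the subunit, had 1301 (0.803%) and 1917 counts (0.962%) in 10X and 257, 128 and 191 counts (0.223%, 0.191% and 0.204%) in Drop-seq. Its summed count came almost wholly from RPL6-201, the canonical 921-base transcript, with 646 and 955 counts in 10X, and from RPL6-202, with 641 and 946. By highest transcript it therefore ranked first in 10X, ahead of RPL29. It was seen in more 10X cells than any other member, 25.7% and 39.2%. The processed pseudogene RPL6P27 led the pseudogenes of the members in every library, with 267 and 470 counts in 10X and 70, 53 and 76 in Drop-seq, and reads may be split between the pair, so the RPL6 level is uncertain.

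RPL10 is among the last proteins to join the subunit before it takes part in translation. It was high on both platforms, with 990, 398 and 633 counts (0.859%, 0.593% and 0.677%) in Drop-seq and 1026 and 1849 counts (0.633% and 0.928%) in 10X. The 10X library at 30 cycles lay inside the Drop-seq range and the one at 35 cycles above it. RPL10 was seen in 28.7%, 16.9% and 20.0% of Drop-seq human cells and in 15.2% and 28.9% of those in 10X.

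The genes that led in Drop-seq were low in 10X. RPL13, a structural protein of the subunit, had 1092, 695 and 876 counts in Drop-seq (0.948%, 1.04% and 0.937%) and 106 and 146 in 10X (0.0654% and 0.0733%). RPL13A, which also takes part in silencing inflammatory mRNAs once released from the ribosome, had 1163, 586 and 831 counts against 64 and 46. RPL41, the smallest ribosomal protein, had 968, 575 and 873 counts against 178 and 244. No Drop-seq and 10X levels overlapped for any of these genes.

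RPL21 had 0.688%, 0.818% and 0.826% of human counts in Drop-seq and 0.0235% and 0.0110% in 10X. RPL34 had 0.628%, 0.806% and 0.683% against 0.00864% and 0.0140%, that is 14 and 28 counts. By highest transcript, RPL41 ranked first in all 3 Drop-seq libraries, and RPLP1, most of whose counts lie on 1 transcript, ranked 5, 2 and 2.

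The P-stalk binds the translation factors that use GTP. RPLP0, its base, had the highest summed count of the stalk genes in every library, with 674, 447 and 597 counts (0.585%, 0.666% and 0.639%) in Drop-seq and 389 and 641 (0.240% and 0.322%) in 10X. RPLP1 had 0.215%, 0.290% and 0.257% in Drop-seq against 0.0722% and 0.0557% in 10X. RPLP2, which pairs with RPLP1 on the stalk, was far lower, with 136, 38 and 92 counts in Drop-seq and 14 and 26 in 10X. By highest transcript RPLP1 stood above RPLP0 in Drop-seq (221, 188 and 229 counts against 167, 111 and 152) and in 10X at 30 cycles (117 against 101), and below it in 10X at 35 (105 against 166). RPLP2 was lowest of the stalk genes either way.

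The proteins of the tunnel and its exit were uneven as well. RPL4, whose loop reaches into the tunnel, had 184, 52 and 140 counts in Drop-seq and 74 and 107 in 10X, and on the share of counts 0.0774% in Drop-seq at 30 cycles lay closest to 10X, at 0.0457% and 0.0537%. RPL23A, at the exit where the signal recognition particle docks, had 278, 148 and 296 counts in Drop-seq against 0 and 4 in 10X. RPL39, which lines the lower tunnel, had 59, 57 and 83 against 10 and 10. RPL22, near the exit, had 90, 42 and 66 against 30 and 12. Of these, RPL23A separated the platforms most.

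RPL5 and RPL11 travel with the 5S ribosomal RNA and bind MDM2 when ribosome assembly fails. RPL11 stayed near one level, 0.200%, 0.189% and 0.128% in Drop-seq against 0.182% and 0.218% in 10X. RPL5 had 57, 37 and 27 counts in Drop-seq and 18 and 22 in 10X, and was the least abundant member in Drop-seq at 25 cycles. The remaining members are shown by library in the plot of all 45 genes. In Drop-seq every member was counted and none had under 20 counts, while in 10X 12 members at 30 cycles and 11 at 35 had under 20, RPL23A among them with 0 at 30 cycles and RPL27 with 0 at 35.

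The comparison of platforms at 30 cycles asked which genes carried the difference. A gene was compared where it had at least 100 counts over both libraries, and was called where its share of human counts, with a pseudocount of 0.5, differed 2-fold or more. Of the 39 members compared, 29 were higher in Drop-seq, 2 were lower and 8 were not called. Over all 309 human genes compared, 35.0% were called higher, 47.6% lower and 82.5% either way, so a call as such was common between these libraries. The median log2 ratio was 2.96 over the members and -0.73 over all genes.

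The largest differences lay in RPL23A, with 0 counts in 10X and a share at least 119-fold higher in Drop-seq when 3 counts in the 10X library are taken as the limit that 0 allows. RPL34 differed by a log2 ratio of 6.49 (5.78 to 7.42), RPL10A by 6.48 (5.57 to 7.79), RPL36A by 5.83 (4.91 to 7.15) and RPL7 by 5.78 (4.98 to 6.86). RPL10A sits at the mobile L1 stalk through which spent tRNA leaves. The 10X library held only 14 RPL34 counts, 8 each of RPL10A and RPL36A, and 11 of RPL7, so these sizes rest on few molecules.

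The members that went the other way were RPL29, at -2.46 (-2.73 to -2.21), and RPL6, at -2.07 (-2.35 to -1.81). RPL37 at -0.85 (-1.51 to -0.26) and RPL23 at -0.54 (-0.92 to -0.18) were lower without reaching 2-fold. RPL10, at -0.09 (-0.27 to 0.07), and RPL11, at 0.06 (-0.25 to 0.36), had intervals across 0. The 6 members under the minimum were RPL5, RPL22, RPL24, RPL35, RPL39 and RPLP2, and each had a larger share of counts in Drop-seq.

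By highest transcript, only 19 members reached the minimum, of which 11 were higher in Drop-seq and 2 lower. The share of all human genes called is not given for that setting. Of 26 small-subunit genes compared, 24 were higher in Drop-seq and 1 lower. The log2 ratios went with canonical transcript length only loosely (Spearman's rho -0.33 over 39 genes, a description). Members with the pyrimidine tract at a listed start had a median log2 ratio of 2.39 (23 genes). Those without it at any listed start had 3.35 (10 genes), and the difference was not tested.

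**Figure D3:**
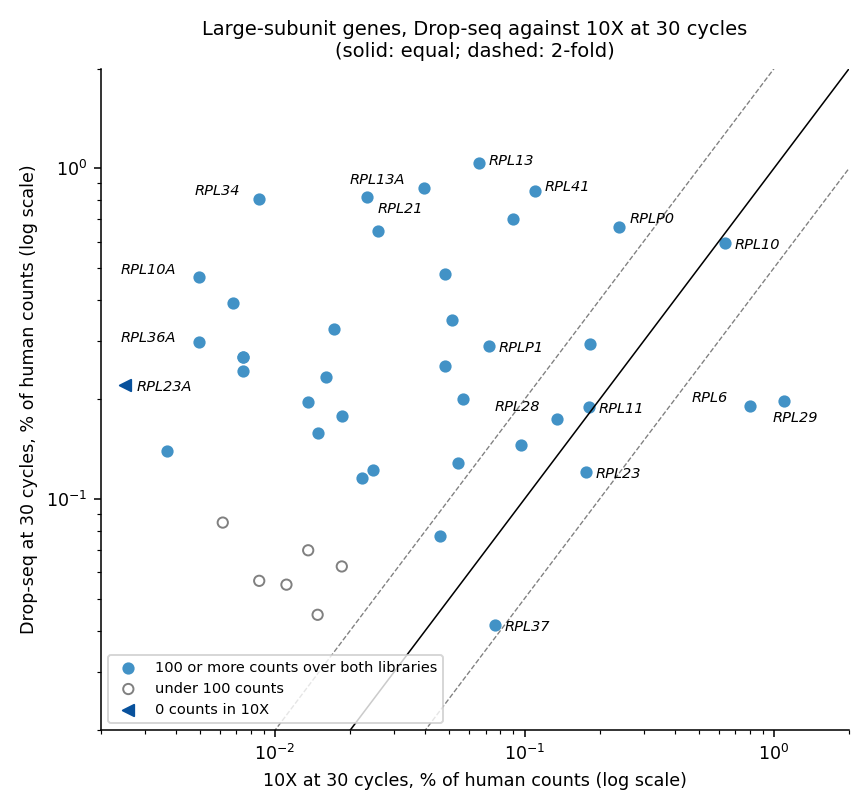
Share of human counts at 30 cycles in 10X (horizontal) and Drop-seq (vertical), both in % on log scales, 1 point per large-subunit gene; the solid line marks equal shares and the dashed lines 2-fold. Of the 39 genes with 100 or more counts, 29 lie above the upper dashed line and RPL29 and RPL6 below the lower one, and RPL23A, with 0 counts in 10X, is drawn at the left edge.

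The cycle number was the question the libraries were made for, since each PCR cycle can add errors to a UMI and split 1 molecule into several. In 10X the large-subunit share was higher at 35 than at 30 cycles by a log2 ratio of 0.17 (0.13 to 0.21). Over the barcodes that were human cells in both libraries it was 0.072, and over barcodes with at least 100 counts 0.091. Leaving out values below 3 in every library turned this to -0.15, with shares of 4.17% at 30 cycles and 3.76% at 35, so its direction depends on how low entries were stored. In Drop-seq, whose files hold no values below 3 at these cycle numbers, the log2 ratio was -0.02 (-0.06 to 0.02). Small-subunit genes held 1.83% of human counts at both cycle numbers in 10X.

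Gene by gene in 10X, 23 members had enough counts and 22 did not. RPL27A was higher at 35 cycles and RPL35A and RPL23 were lower, 3 of 23 in all (1 higher and 2 lower), while over all 421 genes compared 30.6% were called, 10.5% higher and 20.2% lower. The median log2 ratio of the members was 0.15, against -0.19 over all genes. RPL10, RPL6 and RPL29, the most abundant, were not among the calls.

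RPL23, which lies at the face toward the small subunit and can bind MDM2, fell from 285 to 118 counts, a log2 ratio of -1.57 (-1.89 to -1.26). It was seen in 35 of 1006 cells at 30 cycles and 16 of 911 at 35. Over the 722 barcodes that were human cells in both libraries it had 239 and 102 counts, so the gap was as large among barcodes held in common.

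RPL35A, a gene mutated in some forms of Diamond-Blackfan anaemia, fell from 88 to 30 counts, at -1.84 (-2.50 to -1.24), and from 20 cells to 6. On shared barcodes it had 86 and 22 counts. RPL27A rose from 36 to 95 counts, at 1.09 (0.53 to 1.70), and from 7 cells to 16. On shared barcodes its log2 ratio was 0.85 (0.29 to 1.47), under the 2-fold rule. By highest transcript RPL23 had 83 and 36 counts, RPL35A 43 and 13, and RPL27A 14 and 34, and only RPL23 then reached the minimum. The cell numbers behind all 3 calls are small.

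Of the abundant members, RPL10 had a log2 ratio of 0.55 (0.44 to 0.66), RPL6 of 0.26 (0.16 to 0.36), RPL29 of 0.15 (0.06 to 0.24) and RPLP0 of 0.42 (0.24 to 0.61). RPL19, a protein that bridges to the small subunit, had 0.69 (0.40 to 0.99) and RPL15 had 0.55 (-0.01 to 1.14). Toward the low side were RPL13A at -0.77 (-1.35 to -0.21), RPL3, near the catalytic centre, at -0.48 (-0.96 to 0.01), and RPLP1 at -0.37 (-0.76 to 0.01). None of these reached 2-fold. On shared barcodes RPL29 had an interval from -0.10 to 0.09, so its small gain was not there among barcodes held in common.

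The 22 members under the minimum in 10X were RPL5, RPL7, RPL9, RPL10A, RPL12, RPL17, RPL21, RPL22, RPL23A, RPL24, RPL26, RPL27, RPL30, RPL31, RPL34, RPL35, RPL36, RPL36A, RPL37A, RPL38, RPL39 and RPLP2. Their counts ran from 0 to 56. RPL36A went from 8 to 47 counts, RPL7 from 11 to 43 and RPL26 from 28 to 56, while RPL27 went from 26 to 0 and RPL35 from 22 to 6. At this depth no change in them was called.

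In Drop-seq 42 members could be compared and none was called, while 1.87% of all 321 genes compared were called, 0.935% in each direction. The members ran from RPL19 at -0.76 (-0.96 to -0.56) to RPL4 at 0.94 (0.48 to 1.44), around a median of 0.02, against -0.06 over all genes. After RPL4 came RPLP2 at 0.79 (0.24 to 1.38), RPL35 at 0.62 (0.11 to 1.16), RPL23A at 0.52 (0.23 to 0.82) and RPL27A at 0.52 (0.12 to 0.93). After RPL19 came RPL11 at -0.56 (-0.93 to -0.19), RPL9 at -0.55 (-0.96 to -0.14), RPL27 at -0.38 (-0.70 to -0.06) and RPL38 at -0.36 (-0.78 to 0.06). RPL5, RPL24 and RPL37 were under the minimum.

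RPL23 and RPL35A had log2 ratios of 0.45 (0.06 to 0.86) and 0.36 (-0.03 to 0.76) in Drop-seq, on the other side of 0 from 10X. Of the 22 members compared on both platforms, 10 had ratios of the same sign and 12 of opposite sign. Whether the platforms differ in these ratios was not tested.

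**Figure D4:**
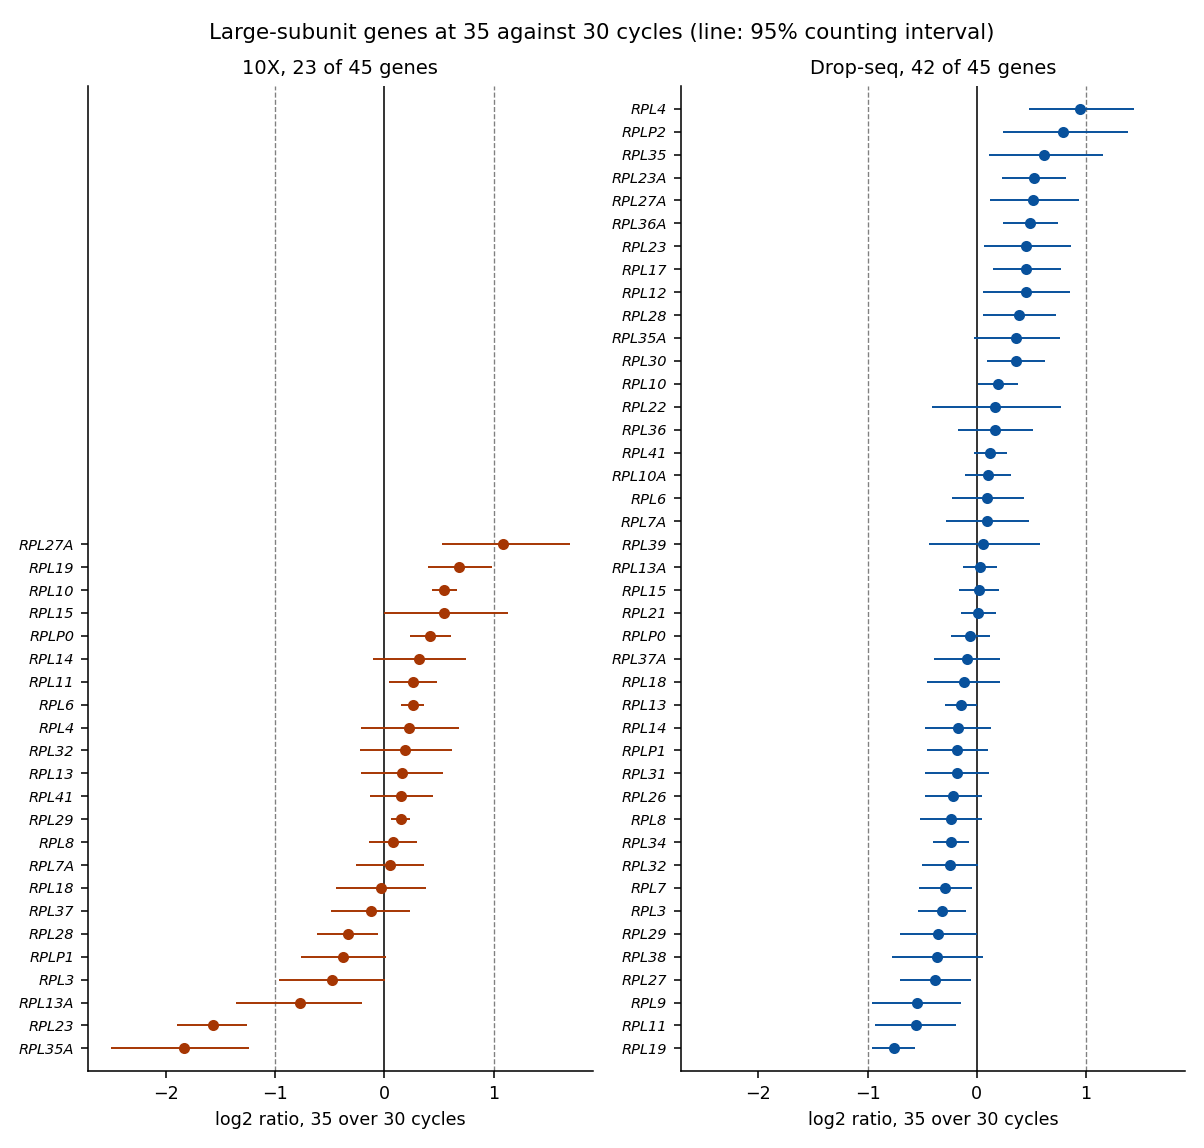
Log2 ratio of the share of human counts at 35 over 30 cycles (horizontal) for the large-subunit genes with 100 or more counts over both libraries, in 10X (left, 23 genes) and Drop-seq (right, 42 genes), with 95% counting intervals as lines and 2-fold as dashed lines. In 10X RPL27A lies beyond 2-fold on the right and RPL23 and RPL35A on the left, and in Drop-seq every point lies within 2-fold.

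Among single cells the share of large-subunit counts was broad. The median human cell gave 13.3% of its human counts to these genes in Drop-seq at 25 cycles (quartiles 7.60% and 18.6%), 13.5% at 30 (7.15% and 18.7%) and 13.0% at 35 (7.58% and 17.6%). In 10X it gave 3.12% at 30 cycles (0% and 6.61%) and 4.32% at 35 (1.25% and 7.06%). The lower quartile of every Drop-seq library lay above the upper quartile of both 10X libraries.

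A human cell held a median of 4, 2 and 3 different large-subunit genes in Drop-seq at 25, 30 and 35 cycles. No large-subunit count was present in 16, 16 and 10 of those cells, against 416 (41.4%) and 219 (24.0%) in 10X. Because depths differ, cells were also thinned to 100 human counts, which left out 352 shallower cells of 10X at 30 cycles and none elsewhere. The share of cells with any member was then 92.0%, 89.8% and 92.1% in Drop-seq against 63.6% and 74.6% in 10X. Thinned, RPL6 was seen in 25.8% of 10X cells at 30 cycles and 34.9% at 35, RPL29 in 24.3% and 29.6%, and RPL10 in 18.7% and 27.0%, while RPL23 went from 4.13% to 1.65%.

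Mouse cells, which should hold no human ribosomal mRNA, give the background. A human large-subunit count was present in 33.1% of the 590 mouse cells of Drop-seq at 25 cycles, 3.09% of 291 at 30 and 4.85% of 309 at 35, and in 0.496% of 806 and 0.454% of 881 in 10X. The smallest stored value was 1 in Drop-seq at 25 cycles, 3 at 30 and 35, and 2 in 10X. Neither these shares nor those of single genes can therefore be compared between libraries whose stored minimum differs. Mouse cells had median counts of 282.5, 278 and 417 in Drop-seq against 117 and 171 in 10X, close to the human cells of the same library. For single genes the background reached at most 4.07% of mouse cells in Drop-seq at 25 cycles, for RPL10, against 28.7% of human cells, and at most 0.372% in 10X, for RPL6 at 30 cycles, against 25.7%. The interval of the share of human cells lay above that of mouse cells for 44, 34 and 37 of the 45 members in Drop-seq. In 10X this held for 23 and 27. Human cells were selected by their share of human counts, which by itself favours human genes in them. The numbers of members above mouse cells are therefore a description and no test. No such number over all human genes is given beside them, so they cannot be read as a trait of the members. The intervals are over cells within a library, without a replicate. For members whose intervals did not separate, such as RPL24 in every library, the share of cells cannot be told from the background at this number of cells.

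**Figure D5:**
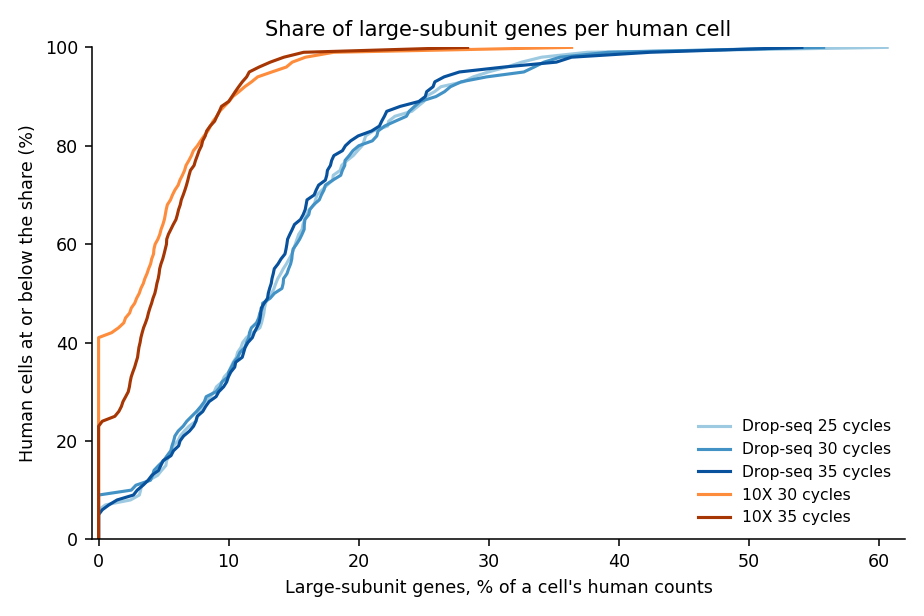
Cumulative share of human cells (vertical, %) by the share of a cell's human counts on large-subunit genes (horizontal, %), 1 line per library. The 3 Drop-seq lines run together with medians of 13.0% to 13.5%, and the 10X lines lie to the left, starting at 41.4% and 24.0% of cells without any such count.

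The barcodes that were human cells in both libraries of a platform show how far the share in a cell was repeated. Over the 145 shared Drop-seq barcodes the median share was 13.3% at 30 cycles and 13.0% at 35, with 72 barcodes higher at 35, 67 lower and 6 equal, and Pearson's r between the libraries was 0.84. Over the 722 shared 10X barcodes the medians were 3.80% and 4.17%, with 327 higher, 309 lower and 86 equal, and r was 0.32. These correlations are descriptions over barcodes of libraries split from 1 pool. Over all human cells the median counts were 243 and 352 in Drop-seq against 118 and 171 in 10X. With depths this unlike, the r of Drop-seq and that of 10X cannot be compared. The stored barcodes had 10 bases, and different cells could share one.

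The isoforms were mostly those annotated as protein coding. These held 77.0%, 78.9% and 77.6% of large-subunit counts in Drop-seq and 83.0% in each 10X library. Transcripts annotated for nonsense-mediated decay, the removal of mRNAs with early stop codons, held 7.07% to 8.06% across the 5 libraries, and retained-intron transcripts 5.62% to 7.34%. Transcripts of coding genes without a defined coding sequence held 8.09% to 8.46% in Drop-seq and 2.98% to 3.34% in 10X. Since near-identical isoforms of a gene carried nearly the same counts, these shares describe the annotation that reads matched and are no measure of splicing.

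RPL41 shows this most plainly. In Drop-seq at 30 cycles its coding transcripts RPL41-202 and RPL41-204 had 198 and 190 counts, and RPL41-201, which has no defined coding sequence, had 180. RPL10-210, a retained-intron transcript of 802 bases, had 298 and 524 counts in 10X, beside 362 and 647 for RPL10-201 and 360 and 636 for the canonical RPL10-202. RPL29-205, a transcript annotated for nonsense-mediated decay, had 325 and 411 counts in 10X beside 499 and 653 for the canonical RPL29-201. In Drop-seq the same place was taken by RPL13A-214, with 279, 146 and 197 counts beside 282, 146 and 195 for the canonical RPL13A-201. RPLP0-214, also annotated for nonsense-mediated decay, had 98 and 155 counts in 10X and RPLP0-203, the canonical form, 97 and 164.
RPL13-207, a retained-intron transcript of RPL13, had 225, 152 and 191 counts in Drop-seq, where the canonical RPL13-201 had 265, 166 and 210. RPL11-204 and RPL7A-204 completed the first 5 transcripts in 10X that are not annotated as coding. In the cases given with both values, the canonical form had a count close to that of the other isoform or above it.

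Genes that work with the ribosome were counted beside its proteins. A list of 5 elongation factor genes and TPT1, a growth-related gene whose mRNA also begins with a TOP tract, held 1.36%, 1.50% and 1.48% of human counts in Drop-seq and 2.19% and 2.80% in 10X. EEF1A1, which brings tRNA to the ribosome, made up 3353 of its 3544 counts in 10X at 30 cycles and 705 of 1005 in Drop-seq. By highest transcript the list held 0.930%, 0.885% and 0.942% in Drop-seq against 0.918% and 1.17% in 10X. At 30 cycles the 10X share was still the higher, by less than with summed counts. The 10X library at 30 cycles then lay inside the range of the Drop-seq libraries, and the one at 35 cycles above it. Of the 3 genes of the list compared at 30 cycles, EEF1G (2.14) and TPT1 (4.44) were called higher in Drop-seq by their log2 ratios, and EEF1A1 had -0.98. At 35 against 30 cycles 3 could be compared on each platform, and EEF1G was higher in 10X, at 1.32. The 27 genes for assembly and export of the large subunit held 0.0894%, 0.0998% and 0.0995% of human counts in Drop-seq against 0.135% and 0.153% in 10X. By highest transcript they held 0.159%, 0.204% and 0.204% against 0.151% and 0.179%, so no direction can be read. In 10X 1 of them could be compared between cycle numbers, and it was not called.

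For the cycle numbers, 19 small-subunit genes could be compared in 10X, of which 3 were lower at 35 cycles and 0 higher, and 31 in Drop-seq, of which 1 was higher and 0 lower. Processed pseudogenes of the members held 0.0963% to 0.113% in Drop-seq and 0.211% and 0.250% in 10X. RPL17 and RPL36A lie in loci with annotated readthrough genes, whose transcripts carry other symbols and were not added, so reads may be split there.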

How the data were processed

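Single-cell RNA was measured in mixed human and mouse cells. The deposited matrices hold UMI counts per barcode and Ensembl transcript, whole numbers that the authors made with minimap2 on hg38 and mm10 transcripts and, for 10X, UMI-tools. The matrices summed to 494147 to 2311090 counts. Whether Drop-seq UMIs were counted as monomers or homotrimers, and why the smallest stored value differs, is not given in the sources used here.

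Transcripts were summed per gene, and 6.48% to 7.91% of human counts, on identifiers not found in GENCODE 44, stayed in the total. The 45 members and all lists were chosen with earlier results of these data known. Named genes were the 5 most abundant per library, the 5 highest and 5 lowest ratios of each comparison, called members, members under the minimum, the P-stalk and tunnel genes, and the leading isoforms. Shares have exact Clopper-Pearson intervals and ratios exact conditional intervals (95%). PCR copies of a molecule may be counted apart, so these intervals cover counting error only. For shares of cells and medians over cells the intervals are over the cells of 1 library. Calls took 2-fold or more, a pseudocount of 0.5 and a minimum of 100 counts over both libraries, over all human genes. No test was possible with 1 library per group, and no doublet caller was run. The comparison code was run on simulated counts with changes larger than 2-fold, scaled by the median of ratios. The reported calls were scaled by the total, so that run did not check their scaling or changes near 2-fold. Alternatives changed the purity, the cells, the stored minimum, isoform summing, the total, the minimum and the scaling. Python 3.11.15, numpy 2.4.6, pandas 2.3.3, scipy 1.17.1 and matplotlib 3.10.9 were used.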

Additional observations from a re-analysis of the deposited data

Results flagged for a closer look

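The share of large-subunit counts moved in opposite directions between 30 and 35 cycles on the 2 platforms, with a log2 ratio of 0.17 in 10X and -0.022 in Drop-seq, where the interval crosses 0. This opposition was lost under other settings: the 10X ratio was -0.15 with values below 3 left out, and the Drop-seq ratio was 0.0016 at a purity of 95%. RPL23 had a log2 ratio of -1.57 in 10X and 0.45 in Drop-seq. RPL35A had -1.84 in 10X and 0.36 in Drop-seq. Each platform had 1 library per cycle number, and the difference between platforms was not tested for any of these.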

How the results depend on the processing

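No paired analysis was possible because each group was 1 library. Settings were changed 1 at a time. A value counts as moved where it left the interval of the reported value or, for a number of genes, changed over 1.5 times. The interval was for counting error, except for the median share per cell, where it was over cells. In all, 51 values did not move, 50 moved and 2 changed sign. In every setting the share was higher in each Drop-seq library than in either 10X library.

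Values of the share are given for Drop-seq at 25, 30 and 35 cycles and then 10X at 30 and 35. By highest transcript per gene and barcode they were 9.25%, 9.35%, 9.08%, 2.53% and 2.90%. Without mitochondrial transcripts in the total they were 14.6%, 14.5%, 14.3%, 5.16% and 5.98%. Over the human counts of all barcodes they were 12.7%, 11.9%, 11.8%, 3.98% and 4.36%. At a purity of 95%, the Drop-seq shares at 25 and 35 cycles were 15.1% and 14.2%. Over barcodes with at least 100 counts, 10X gave 4.74% and 5.05%, and the 25- and 35-cycle Drop-seq libraries gave 14.5% and 13.6%. With values below 3 left out 10X gave 4.17% and 3.76%, and the 25-cycle Drop-seq library gave 15.0%. Among alternatives chosen after seeing the data, the total without IGLL5, IGLC1 and mitochondrial transcripts gave 14.6%, 14.5%, 14.3%, 5.53% and 6.76%, and leaving out RPL6, RPL10 and RPL29 gave 13.1%, 13.3%, 13.0%, 2.13% and 2.15%. With the former total the platform comparison called 29 of 39 members higher in Drop-seq and 3 lower.

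The log2 ratio of the share between cycle numbers in 10X was 0.091 over barcodes with at least 100 counts and 0.072 over barcodes that were human cells in both libraries, and turned to -0.15 with values below 3 left out, by which entries of 2 are removed from both libraries. In Drop-seq it was 0.0016 at a purity of 95%, on the other side of 0. The median share per human cell with values below 3 left out was 0% in both 10X libraries and 11.1% in the 25-cycle Drop-seq library.

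Members called higher in 10X at 35 cycles were 3 of 30 at a minimum of 50 counts and 0 of 16 at a minimum of 200. They were 0 of 13 by highest transcript, 0 of 22 over shared barcodes and 0 of 7 with values below 3 left out. Members called lower were 1 of 16 at a minimum of 200 and 1 of 13 by highest transcript. With values below 3 left out, 1 of 7 was lower. In Drop-seq, 1 of 42 members was called higher when scaled by the median of ratios. Between platforms, members higher in Drop-seq were 17 of 25 at a minimum of 200 and 11 of 19 by highest transcript. The share of all human genes called is not given for these settings, so these numbers cannot be set against it. At 118 to 352 counts per median human cell, genes with few counts could not be compared, which in 10X was the case for 22 members.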
